A study of Mus musculus with 22 samples.

Results

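The cytoskeletal motor genes were taken as every protein-coding gene of the GRCm38 annotation (GENCODE release M21) whose symbol begins with Kif, Myo or Klc and a number, or with Dync or Dctn. This rule gave 81 of 21951 protein-coding genes: 39 named Kif, 4 kinesin light chains, 7 cytoplasmic dynein subunits, 6 dynactin subunits and 25 myosins. One of the 39, Kif1bp, encodes a kinesin-binding protein and not a motor, and kinesins and myosins with other symbols (Kifc, Cenpe, Myh) lie outside the rule. A footprint, a genome interval retained as bound by hnRNP A1, overlapped 57 of the 81 genes (70.4%) in at least 1 mouse, against 9999 of 21951 protein-coding genes (45.6%). Motor genes were also longer, with a median span of 51598 nt against 17403 nt and a median of 6957 against 3498 exonic nt, and the part of gene length in the higher percentage was not tested.

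The footprints come from CLIPseq of hnRNP A1, in which UV light crosslinks proteins to RNA in the tissue and an antibody recovers the RNA bound to 1 protein. Spinal cords were from female wild-type C57Bl/6 mice: 3 naive mice, 3 with mild experimental autoimmune encephalomyelitis (EAE; clinical scores 1.5, 1.5 and 1.0) and 4 with severe EAE (2.5, 3.0, 3.0 and 2.5). The EAE mice had received the myelin peptide MOG(35-55) with complete Freund's adjuvant, and 100 ng pertussis toxin on days 0 and 1, and cords were taken 15 days after clinical onset; age at immunisation is 12 weeks in the protocol and 8 weeks in the design text, and the naive mice were age-matched. Each mouse gave 1 immunoprecipitation with an anti-hnRNP A1 antibody and 1 list of footprints without scores, strand or read counts, so the depth behind a footprint is unknown and a gene without a footprint is one where none was retained.

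The lists differed in size between mice, most of all in severe EAE. Naive mice had 17119, 17454 and 17494 footprints, mild EAE mice 14534, 9751 and 24433, and severe EAE mice 1 to 4 had 2670, 209, 673 and 31870. Severe EAE mouse 4 thus had the longest list and the other 3 severe EAE mice the shortest of the series. Counts, covered lengths and numbers of genes therefore moved with list size in severe EAE, and binding in these mice cannot be told apart from how much of each library was retained. In whole tissue, fewer cells of a type and less bound RNA per cell cannot be told apart either. The paper describes severe EAE mouse 4 as an outlier of its group that was in remission shortly before the experiment ended. The paper's reproducibility analysis also flagged this mouse. Footprints lay on all 8 neuronal, all 6 oligodendrocyte and all 5 astrocyte marker genes examined, but on 1 of 4 motor neuron markers, with 1 footprint. Neuronal markers had 35, 30 and 38 footprints in naive, 24, 18 and 24 in mild EAE, and 2, 0, 1 and 61 in severe EAE mice, so that every mild EAE mouse lay below every naive mouse in number, while their shares of the lists (0.204%, 0.172% and 0.217%, then 0.165%, 0.185% and 0.0982%) overlapped. Astrocyte markers had 16, 9 and 22 footprints in naive, 25, 14 and 31 in mild EAE, and 10, 0, 1 and 43 in severe EAE mice, and their share was higher in every mild EAE mouse (0.127% to 0.172%) than in the naive mice (0.0516% to 0.126%). Mild EAE mouse 3 (0.127%) and naive mouse 3 (0.126%) were nearly equal. Oligodendrocyte marker shares overlapped, at 0.239%, 0.0917% and 0.229% in naive and 0.165%, 0.205% and 0.168% in mild EAE mice. Microglia and leukocyte markers, 8 genes, had 0 footprints in each naive mouse, 28, 8 and 25 in the mild EAE mice, and 2, 0, 3 and 35 in the severe EAE mice, and the part of these marker genes in the differences below was not tested. Over the 10 mice together, skeletal muscle markers had 1 footprint, in naive mouse 2, and ependymal cilia markers had 1, in severe EAE mouse 4.

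Kinesins and cytoplasmic dynein are ATP-driven motors that walk along microtubules. Some kinesins carry vesicles, organelles and RNA granules toward the axon terminal, and cytoplasmic dynein, with its cofactor dynactin, carries cargo back toward the cell body. Myosins move along actin filaments and act in cell shape, short-range transport and contraction. hnRNP A1 is an abundant nuclear RNA-binding protein that acts in splicing and RNA export, with UAG as its best-known core motif.

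The stretches shared by the most mice lay in coding exons. After footprints of all mice were merged into regions, the motor genes held 867 regions, and 458 of these (52.8%) were found in at least 2 mice. Of 600 regions whose most shared stretch was coding, 385 (64.2%) were found in at least 2 mice and 11 in at least 7, whereas of 109 intronic regions 17 (15.6%) were found in at least 2 mice and 0 in 5 or more. Of the 25 stretches of 30 to 300 nt that were covered in at least 6 mice, 24 were coding and 1, in Kif1a, was in UTR or mixed sequence; 7 lay in Dync1h1, 5 in Myo18a and 4 in Kif1a. The 5 that were covered in 7 mice (all 3 naive, all 3 mild EAE and severe EAE mouse 4) and, from the 20 covered in 6 mice, the longest stretch of Kif1a and that of Kif5a are given to show what was bound repeatedly. They are GRCm38 sequence on the strand of the gene, 5′ to 3′, with UAG (TAG in DNA letters) in capitals.
Myo18a, chr11:77842148-77842267, plus strand: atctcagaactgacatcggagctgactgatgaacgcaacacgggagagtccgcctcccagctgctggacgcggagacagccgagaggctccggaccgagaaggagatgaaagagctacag
Dync1h1, chr12:110649215-110649279, plus strand: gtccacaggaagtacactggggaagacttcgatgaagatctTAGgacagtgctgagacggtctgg
Dync1h1, chr12:110654784-110654846, plus strand: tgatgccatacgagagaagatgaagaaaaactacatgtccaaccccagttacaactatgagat
Myo18a, chr11:77843172-77843231, plus strand: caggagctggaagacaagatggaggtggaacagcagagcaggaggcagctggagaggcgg
Dync1h1, chr12:110649078-110649114, plus strand: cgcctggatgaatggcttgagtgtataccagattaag
Kif1a, chr1:93066059-93066173, minus strand: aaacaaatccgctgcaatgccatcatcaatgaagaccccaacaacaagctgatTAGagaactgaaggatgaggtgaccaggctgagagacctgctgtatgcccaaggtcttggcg
Kif5a, chr10:127247539-127247627, minus strand: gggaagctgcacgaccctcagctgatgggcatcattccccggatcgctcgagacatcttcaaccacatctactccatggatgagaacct

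UAG was present in 2 of these 7 coding stretches. Intronic stretches shared by at least 2 mice looked different, and 3 are given because much of the intronic signal lay in such sequence; they were chosen after the data were seen. The stretch of Myo16 was covered in naive mouse 1 and severe EAE mouse 4, that of Kif26b in naive mice 1 and 2, and that of Kif13b in mild EAE mouse 3 and severe EAE mouse 4.
Myo16, chr8:10618066-10618209, plus strand: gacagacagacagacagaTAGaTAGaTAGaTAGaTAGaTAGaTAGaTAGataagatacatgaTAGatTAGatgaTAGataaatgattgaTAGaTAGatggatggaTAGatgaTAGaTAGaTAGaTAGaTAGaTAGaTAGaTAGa
Kif13b, chr14:64753917-64754052, plus strand: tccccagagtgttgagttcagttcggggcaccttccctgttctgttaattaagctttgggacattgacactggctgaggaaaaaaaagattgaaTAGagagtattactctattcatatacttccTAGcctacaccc
Kif26b, chr1:178723712-178723834, plus strand: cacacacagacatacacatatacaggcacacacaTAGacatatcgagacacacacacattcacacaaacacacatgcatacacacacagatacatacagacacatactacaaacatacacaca

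The Myo16 stretch is a run of GATA repeats with 22 UAG, the Kif26b stretch is a CA-rich repeat, and the Kif13b stretch is not a simple repeat. Reads of such repeats can align to several places in the genome, so the position of a footprint in them is uncertain.

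The share of all footprints that fell in motor genes was between 0.957% and 2.08% in every mouse. Naive mice had 248, 179 and 266 motor footprints, which were 1.45%, 1.03% and 1.52% of their lists. Mild EAE mice had 292, 146 and 377, or 2.01%, 1.50% and 1.54%. Severe EAE mice 1 to 4 had 53, 2, 14 and 453, or 1.99%, 0.957%, 2.08% and 1.42%. The groups overlapped, at 1.33% ± 0.265 (SD, n = 3) in naive, 1.68% ± 0.284 (n = 3) in mild EAE and 1.61% ± 0.525 (n = 4) in severe EAE. The 95% Wilson interval, for counting error only, ran from 1.79% to 2.25% in mild EAE mouse 1 and from 0.263% to 3.42% in severe EAE mouse 2, whose 2 footprints cannot place it above or below the other mice. Motor genes with a footprint numbered 38, 42 and 34 in naive, 32, 24 and 38 in mild EAE, and 11, 2, 8 and 43 in severe EAE mice, an order that followed list size within the EAE groups.

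**Figure D1:**
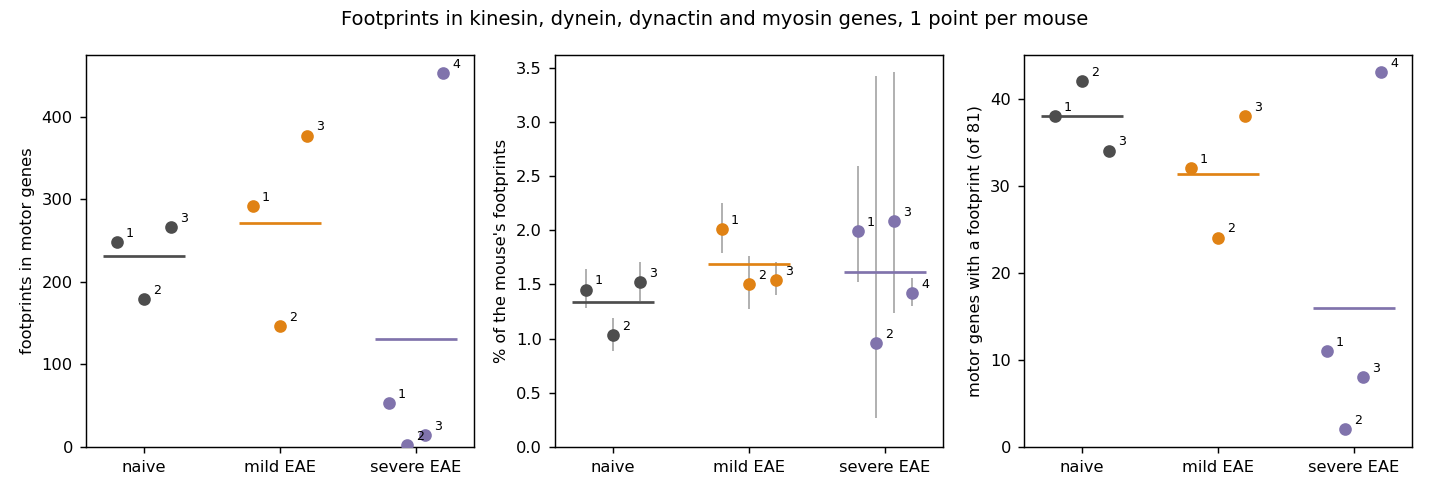
Footprints in the 81 motor genes (left), as a percentage of all footprints of the mouse (middle, bars are 95% Wilson intervals) and as the number of motor genes with a footprint (right), with 1 numbered point per mouse and lines at group means. The counts of severe EAE mice 1, 2 and 3 were 53, 2 and 14 against 453 in mouse 4, while their percentages overlapped those of naive and mild EAE mice.

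By class, the kinesin heavy chain set held 1001 of the 2030 footprints, myosins 421, cytoplasmic dynein 401, dynactin 115 and kinesin light chains 92. A list of 15 transport kinesins, those known for axonal and dendritic cargo, held 954 footprints, and all 15 were footprinted in at least 1 mouse and 12 in at least 5. Of all protein-coding genes, 45.6% were footprinted in at least 1 mouse and 14.4% in at least 5. The transport kinesin list was chosen with earlier results of these data known, and the part of gene length or expression here was not tested. Of 11 mitotic kinesins, which act on the spindle of dividing cells, 2 (Kif11 and Kif14) held 4 footprints in all. Transport kinesins made up 0.742%, 0.390% and 0.720% of the footprints of naive mice, 0.963%, 0.738% and 0.7% in mild EAE, and 1.12%, 0.478%, 0.743% and 0.671% in severe EAE, with overlap between the groups. Of the 24 motor genes with no footprint in these lists, 9 were mitotic kinesins of that list, and others, such as Kif9, Kif27 and Dync2li1, are known for cilia.

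Dync1h1, which encodes the force-producing heavy chain of cytoplasmic dynein (chr12:110601452-110666945, plus strand), was the most extensively footprinted motor gene. Its footprints covered 4010, 1708 and 5310 nt in naive, 4696, 2435 and 6513 nt in mild EAE, and 1274, 0, 349 and 7162 nt in severe EAE mice. Naive and mild EAE mice overlapped, and severe EAE mice 1 to 3 lay below every other mouse. The means were 3676 ± 1824 nt in naive (SD, n = 3) and 3204 ± 2932 nt in the 7 EAE mice (exact permutation test, two-sided, p = 0.833). Of 305 footprints, 304 were coding, 1 was in the 3′ UTR and 0 were intronic. They were spread along the coding sequence, with 98 in the start, 109 in the middle and 97 in the end part when it was cut into 3 equal parts. Per length, they covered 25.2%, 10.9% and 33.4% of its 15658 exonic nt in naive mice and 29.8%, 15.5% and 41.4% in mild EAE.

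**Figure D2:**
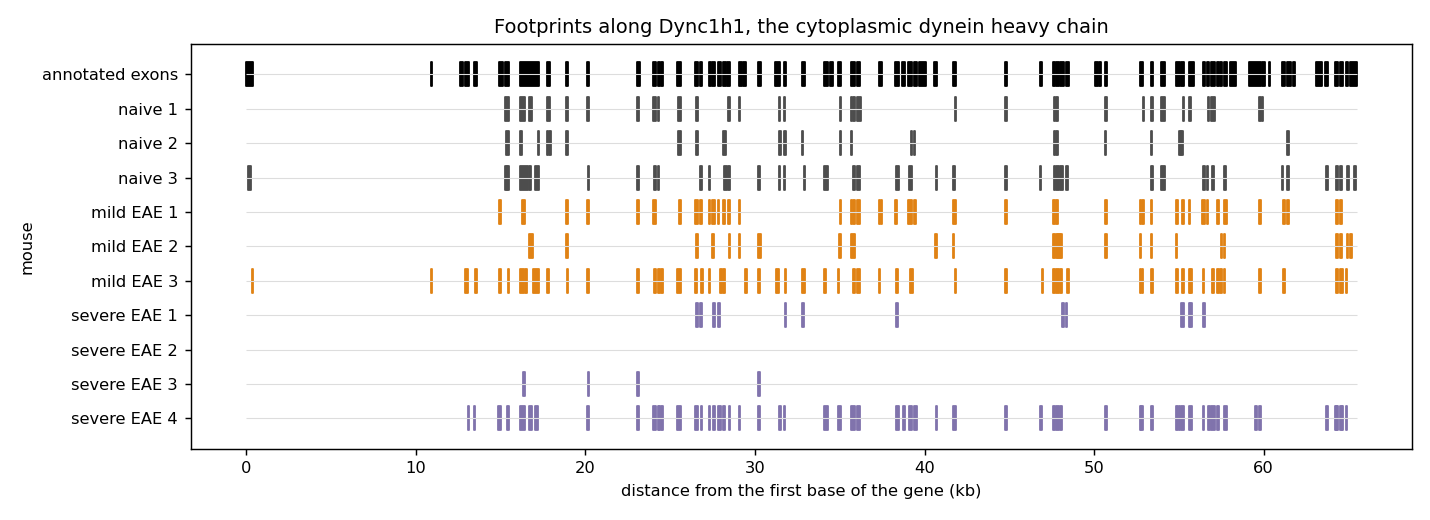
Footprints along Dync1h1 by mouse (coloured bars), with annotated exons in black and the distance from the first base of the gene in kb on the x axis; bars shorter than 0.08 kb are widened to be visible. Footprints fell on exons throughout the gene in naive and mild EAE mice and in severe EAE mouse 4, and severe EAE mouse 2 had none.

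The other dynein subunits held fewer footprints. The intermediate chain Dync1i1, which links the motor to dynactin, covered 534, 767 and 411 nt in naive, 0, 162 and 454 nt in mild EAE, and 733 nt in severe EAE mouse 4 against 0 in the other 3. Its footprints were mostly intronic, 19 of 25, in contrast to the heavy chain. The light intermediate chain Dync1li2, which ties the motor to cargo adaptors, covered 133, 136 and 408 nt in naive and 515, 467 and 766 nt in mild EAE mice. Every mild EAE mouse lay above every naive mouse. The 4 footprints of naive mice were all in its 3′ UTR. Coding footprints lay in mild EAE mouse 1 (6), mouse 2 (2) and mouse 3 (8), and in severe EAE mouse 4 (8). The 3′ UTR also held 2 footprints of mild EAE mouse 2, 1 of mild EAE mouse 3 and 1 of severe EAE mouse 4. Severe EAE mice 1 to 3 had 0 nt. Dync1li1 had a footprint in 3 mice, Dync1i2 in 5, and Dync2h1, the heavy chain of the dynein of cilia, in 5 with 8 of 12 footprints intronic.

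Dynactin was represented mainly by Dctn1, its largest subunit, which binds both dynein and microtubules, and by Dctn2. Dctn1 covered 306, 598 and 1215 nt in naive, 791, 664 and 1524 nt in mild EAE, and 0, 0, 32 and 2323 nt in severe EAE mice. Dctn2 covered 121, 0 and 277 nt, then 602, 243 and 475 nt, then 0, 0, 140 and 740 nt in the same order. For both genes naive and mild EAE mice overlapped in covered length. Dctn3, Dctn4 and Dctn6 had a footprint in 2 or 3 mice, with all 7 of Dctn3 shared with an overlapping gene, and Dctn5 in 0.

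Among kinesins, the axonal cargo motors Kif1a, Kif1b and Kif5a were covered most. Kif1a, a carrier of synaptic vesicle precursors, covered 2994, 1716 and 2855 nt in naive, 3104, 1217 and 2439 nt in mild EAE, and 645, 0, 0 and 3593 nt in severe EAE mice. Kif1b, a close relative, covered 1907, 782 and 2711 nt, then 1558, 1176 and 3574 nt, then 785, 0, 226 and 4451 nt. Kif5a, the neuronal form of conventional kinesin, covered 2302, 757 and 1238 nt, then 2021, 757 and 1729 nt, then 678, 0, 146 and 3185 nt. Naive and mild EAE mice overlapped for all 3 genes, and naive mouse 2 was the lowest naive mouse for each.

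The other conventional kinesin heavy chains, Kif5b and Kif5c, had 94 and 82 footprints, and 60 of those of Kif5b also overlapped another annotated gene. Kif5a, Kif5b and Kif5c are close paralogs, and contigs of shared sequence could have been placed on either, which was not tested. Kif21a, a kinesin that restrains microtubule growth, covered 600, 270 and 1163 nt in naive and 752, 155 and 2554 nt in mild EAE mice. Kif13b covered 408, 166 and 470 nt and 290, 458 and 1378 nt, and Kif21b 797, 678 and 342 nt and 1133, 460 and 456 nt, again with overlap. Kif3c had 19 of its 26 footprints shared with another gene. Kif1c was 1 of 2 motor genes with a footprint in severe EAE mouse 2, at 109 nt, the other being Myo3a at 153 nt.

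The kinesin light chains bind cargo for the conventional kinesins. Klc2 covered 736, 38 and 283 nt in naive, 808, 298 and 1088 nt in mild EAE, and 222, 0, 0 and 1267 nt in severe EAE mice. Klc1 covered 354, 251 and 732 nt, then 760, 185 and 596 nt, then 277, 0, 0 and 789 nt. Mild EAE mice overlapped naive mice for both.

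The most covered myosin was Myo18a, a myosin with little motor activity of its own that has been linked to the Golgi. It covered 2011, 1318 and 1630 nt in naive, 1941, 725 and 2154 nt in mild EAE, 0 nt in severe EAE mice 1 to 3 and 2097 nt in mouse 4. Its 111 coding footprints lay toward the end of the coding sequence, with 15, 34 and 62 in its start, middle and end part, beside 33.0%, 34.3% and 32.7% over all motor genes. With the footprints of a group pooled, the end part held 61.7% of them in naive and 59.6% in mild EAE mice. In severe EAE the end part held 5 of 17 (29.4%) and the middle part 10, and all 17 were in mouse 4. Footprints of 1 mouse are not replicates of a group. Myo5a, which carries organelles and RNA granules along actin in neurons, covered 268, 0 and 905 nt in naive and 1071, 346 and 1503 nt in mild EAE. Myo9b, an unconventional myosin, covered 540, 562 and 790 nt in naive and 1369, 787 and 1354 nt in mild EAE, with mild EAE mouse 2 within 3 nt of naive mouse 3. Myo10, known for filopodia, covered 0, 957 and 500 nt in naive and 154, 0 and 430 nt in mild EAE.

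Per exonic length, the order of the covered share over the 10 mice was led by Dync1h1, Kif1a, Kif5a, Kif5c and Klc2. In severe EAE mouse 4 the highest shares were those of Kif5a (45.5%), Dync1h1 (45.4%), Kif5c (37.7%), Kif1a (36.8%) and Dctn1 (35.3%), and in every group the ranges of neighbours in the order of means overlapped. This scale is the percentage of annotated exonic nt under a footprint and not an RNA level, since input libraries were not analysed here.

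**Figure D3:**
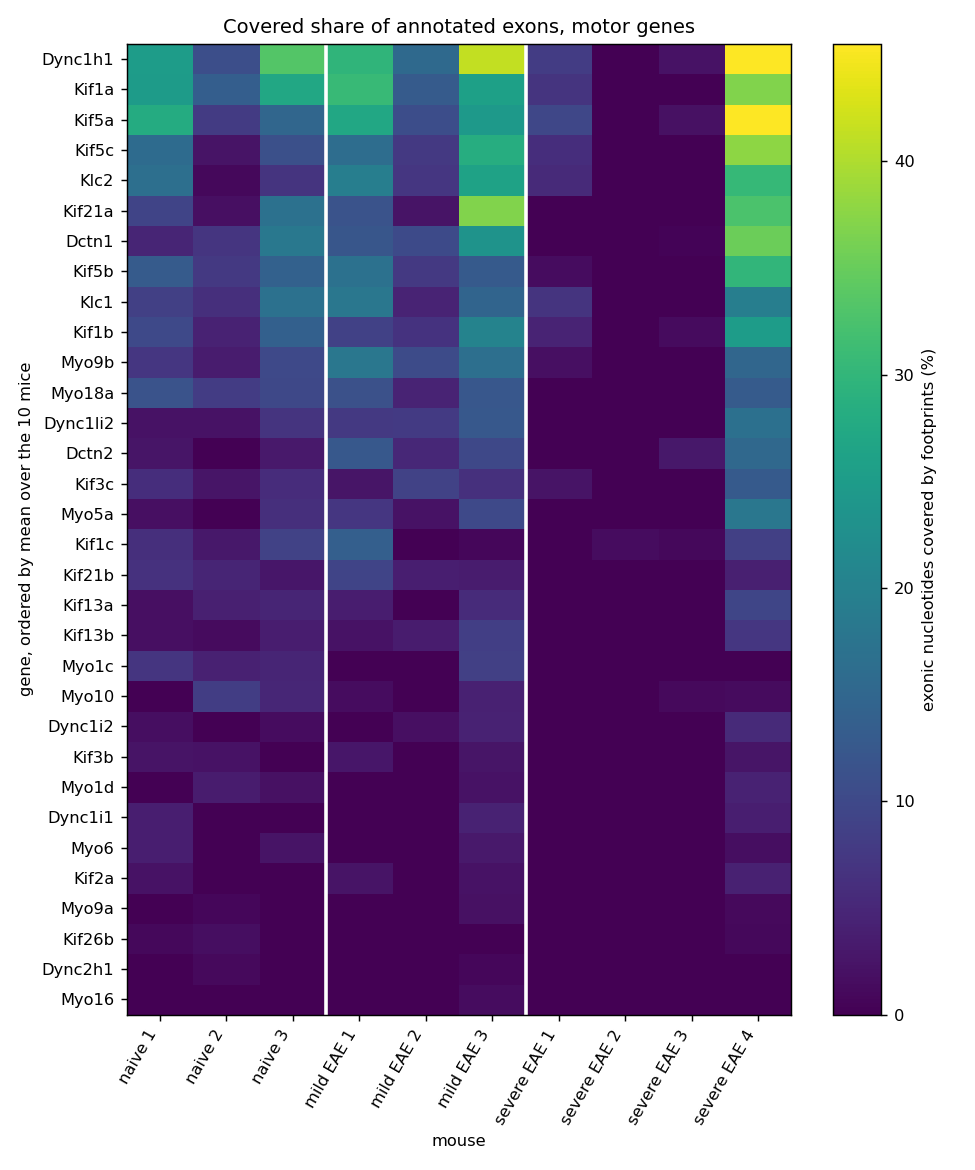
Percentage of annotated exonic nt covered by footprints (colour) for the 32 motor genes named by the rule (rows, ordered by their mean) in each of the 10 mice (columns, groups separated by white lines). Dync1h1 reached 41.4% in mild EAE mouse 3 and 45.4% in severe EAE mouse 4, while severe EAE mice 1 to 3 stayed at 0 or close to it for most genes.

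No motor gene passed adjustment over all genes in the test of EAE against naive mice, but this test could hardly be passed. The smallest exact p that 3 against 7 mice allow is 0.00833. With so many genes tested, an adjusted p under 0.05 would need many genes at that floor at once. The result therefore does not show that covered length was equal. Of 5481 genes with a footprint in at least 3 mice, 0 passed an adjusted p of 0.05 in the exact permutation test of covered length (two-sided, 3 naive against 7 EAE mice, 120 assignments), and the smallest Benjamini-Hochberg adjusted p was 0.471. At an unadjusted p under 0.05 there were 344 genes (6.28%), of which 2 were among the 43 motor genes tested, Kif26b and Myo1c, both lower in EAE. This share of motor genes, 4.65%, was near the background. Over the motor genes tested, the median difference of EAE minus naive was -70.7 nt, against -33.1 nt over all genes tested. Covered length in EAE was higher for 14 of the 43 (32.6%) against 38.8% of all genes. Scaled to 1000000 covered nt of each mouse, the order turned, with a median difference of -7.97 for the motor genes against -11.1 for all genes, and 21 of the 43 (48.8%) higher in EAE against 41.9%. At an unadjusted p under 0.05 there were then 4 of the 43 motor genes, with Dync1i1 and Myo1d besides Kif26b and Myo1c, where 7.95% of all genes were. For mild EAE alone the median difference was 37.7 nt, against 2.67 nt over all genes, and 24 of the 43 (55.8%) were higher, against 51.2% of all genes. Scaled, these were 51.2 against 7.51, and 65.1% against 54.2%. The 81 motor genes had a median of 6957 exonic nt, against 3498 over all protein-coding genes. The part of gene length in these median differences, scaled or not, was not tested.

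Kif26b, an atypical kinesin without motor activity known from kidney development, covered 281, 761 and 195 nt in naive, 0 nt in all 3 mild EAE mice, and 0, 0, 0 and 137 nt in severe EAE mice. All naive mice thus lay above all EAE mice, at a mean of 412 ± 305 nt (SD, n = 3) against 19.6 ± 51.8 nt (n = 7; exact permutation test, p = 0.00833, the smallest that 3 against 7 mice allow; adjusted p = 0.471). Of its 12 footprints, 6 were intronic, all 6 in naive mice, and 5 overlapped another annotated gene. Naive mouse 3 (195 nt, intronic) and severe EAE mouse 4 (137 nt, coding) had 1 footprint each. By number of footprints these 2 mice were thus equal, and the separation rests on the length of single footprints. The intronic stretch shared by naive mice 1 and 2 is the CA-rich repeat given above, whose position is uncertain. Myo1c, a myosin that tethers membranes to actin, covered 483, 276 and 313 nt in naive, 0, 0 and 565 nt in mild EAE and 0 nt in all 4 severe EAE mice. Mild EAE mouse 3 therefore lay above every naive mouse, and the exact permutation test over all 10 mice gave p = 0.0333 (adjusted p = 0.587).

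Between naive and mild EAE, 1 of the 55 motor genes with a footprint in those 6 mice, Dync1li2, was above naive without overlap, where 259 of 9152 genes were (2.83%). Below naive without overlap was 1 of 55, Kif26b, where 294 of 9152 were (3.21%). With 3 against 3 mice no exact p can be below 0.1. Scaled to 1000000 covered nt of each mouse, Dctn2 and Myo9b joined Dync1li2 above naive and Dync1i1 joined Kif26b below. These were 3 and 2 of 55, where 4.67% and 3.32% of all genes were.

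Between naive and severe EAE, 0 of 57 motor genes were above naive in every mouse, where 1 of 9075 genes was (0.011%), and 2 of 57, Kif26b and Myo1c, were below, where 253 of 9075 were (2.79%). An exact p could not fall below 0.0286 here. After scaling 5 of 57 were below, with Dync1i1, Kif21b and Myo18a added, where 6.18% of all genes were. Without severe EAE mouse 4 the count below naive was 19 of 52 motor genes (36.5%), beside 1828 of 7678 genes (23.8%), and included Dync1h1, Kif1a, Kif5a, Kif5b, Dctn1 and Myo18a. The lists of the 3 mice left hold 2670, 209 and 673 footprints, and the part of list size in these counts was not tested.

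Myo1f, a myosin of leukocytes, was chosen after its values were seen. It covered 0 nt in all naive mice, 0, 133 and 326 nt in mild EAE, and 0, 0, 0 and 944 nt in severe EAE (p = 0.592, exact permutation test). The 3 mice with a Myo1f footprint also had footprints on microglia and leukocyte markers (8, 25 and 35), as did mild EAE mouse 1 (28) and severe EAE mice 1 and 3 (2 and 3), which had none on Myo1f.

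**Figure D4:**
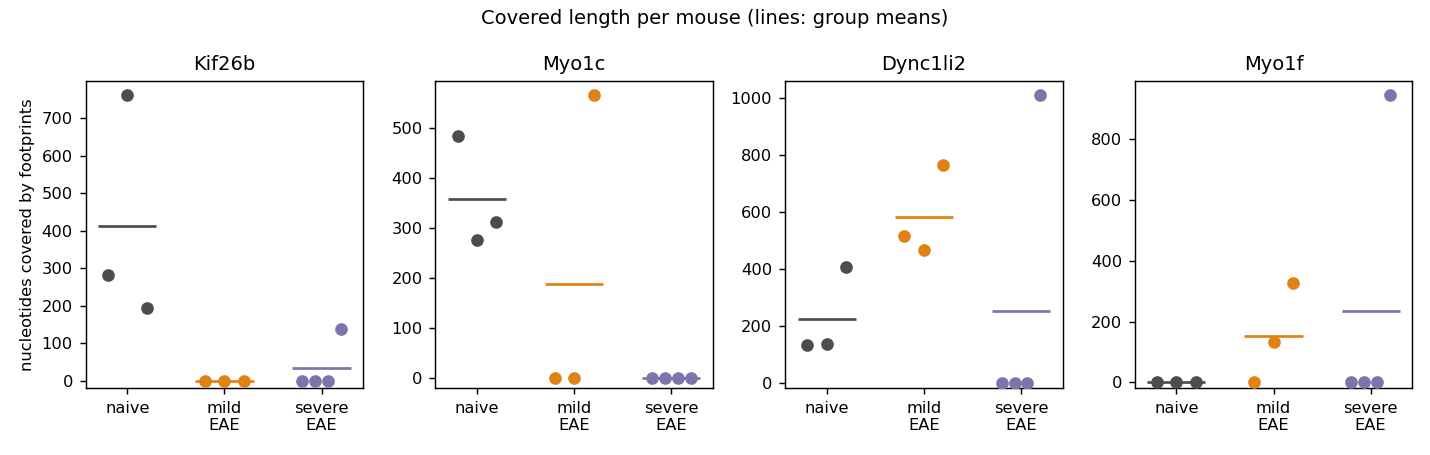
Nucleotides covered by footprints in Kif26b, Myo1c, Dync1li2 and Myo1f, with 1 point per mouse and lines at group means. Naive mice (195 to 761 nt) lay above all EAE mice (0 to 137 nt) for Kif26b, and mild EAE mice (467 to 766 nt) above naive mice (133 to 408 nt) for Dync1li2.

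A larger share of footprints was coding in motor genes than over all protein-coding genes. Over all mice, 1768 of 2030 (87.1%) had their midpoint in coding sequence, 124 (6.11%) in an intron, 87 (4.29%) in a 3′ UTR and 38 (1.87%) in a 5′ UTR. Over all protein-coding genes these were 62.5%, 23.7%, 5.60% and 2.20% of 125320. That number counts a footprint once for each gene it overlapped. The coding share was above that of all protein-coding genes in each of the 10 mice, for example 84.3% against 51.7% in naive mouse 1 and 95.2% against 79.5% in mild EAE mouse 1. In severe EAE mouse 2 it was 1 of 2 footprints. Footprints on successive exons were counted separately here, and the share after joining them was not computed.

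The intronic share of motor footprints was 8.87%, 21.8% and 7.14% in naive mice and 1.71%, 1.37% and 2.65% in mild EAE mice. All mild EAE mice lay below all naive mice. Severe EAE mouse 4 had 5.74%, mice 1 and 3 had 0 of 53 and 0 of 14, and in mouse 2 it was 1 of 2 footprints. The same order was seen over all protein-coding genes, at 36.5%, 40.2% and 26.2% in naive and 9.91%, 22.3% and 16.8% in mild EAE. The mean for motor genes was 12.6% ± 8.01 in naive and 1.91% ± 0.663 in mild EAE (SD, n = 3 each). By class, the share with the footprints of a group pooled was, in naive and mild EAE mice, 10.1% and 1.78% for kinesins, 12.0% and 3.61% for dynein, and 16.3% and 2.50% for myosins, and it was 0% in both for the light chains.

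**Figure D5:**
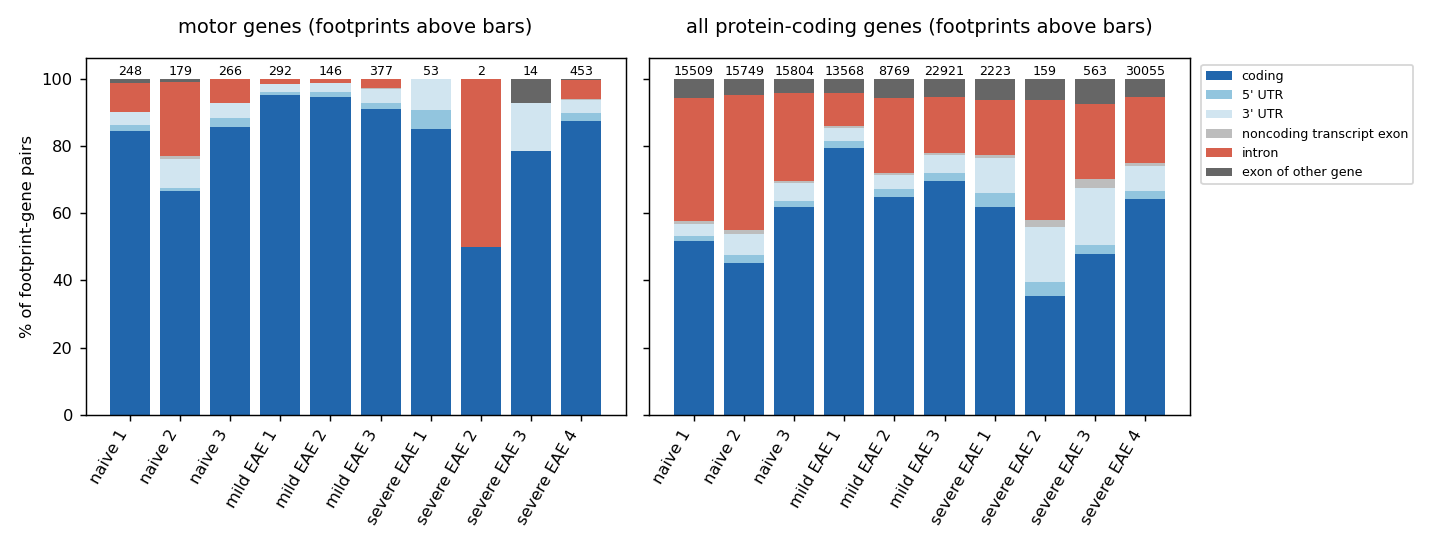
Annotation of footprints in motor genes (left) and in all protein-coding genes (right), in percent for each mouse. A footprint is counted once for each gene it overlaps, and the count stands above the bar. Severe EAE mouse 2 has 2 motor footprints. Coding sequence (dark blue) made up 87.1% of motor footprints over all mice against 62.5% for all protein-coding genes, and introns (red) were lower in mild EAE than in naive mice on both sides.

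The intronic footprints lay in 36 motor genes. Dync1i1 held 19 of the 124, Kif1a 9, Dync2h1 and Myo16 8 each, and Kif13a and Kif26b 6 each. For Kif1a these were 9 of 187 footprints, whereas for Myo16 they were 8 of 9. Bases masked as repeats or low-complexity sequence in the reference made up 50.8% of the intronic motor footprints and 34.8% of windows of the same length 200 nt away, against 43.9% and 36.6% for intronic footprints of all protein-coding genes. Coding motor footprints were masked at 3.72%.

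Most coding footprints ended where an exon ended. Of 1768 coding motor footprints, 1573 (89.0%) had at least 1 end at an annotated exon edge and 403 (22.8%) spanned exactly 1 exon, against 81.5% and 15.6% over all protein-coding genes. Of the 2030, 840 (41.4%) were joined to the footprint before them by an annotated intron, against 27.2%. Neighbouring footprints on successive exons may come from a single spliced contig, so they are not independent observations of binding. Counted after joining, the motor footprints of naive mice were 153, 132 and 173, those of mild EAE mice 152, 97 and 200, and those of severe EAE mice 35, 2, 11 and 235.

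Motif counts for UAG and AGGU used the sense strand only, in footprints that overlapped 1 gene; the letters of both overlap in UAGGU. Intronic motor footprints held 30.5, 14.2 and 18.5 UAG per 1000 nt in naive mice, against 11.5, 12.7 and 10.6 in windows 200 nt away. These rest on 21, 37 and 18 footprints. Mild EAE mice 1 and 3 had 56.9 and 36.6 against 12.4 and 11.3, in only 5 and 10 footprints. Severe EAE mouse 4 had 23.1 against 14.4 in 25 footprints, and severe EAE mouse 2 had 8 UAG in its 1 intronic footprint of 153 nt. Mild EAE mouse 2 had 1 UAG in its 2 intronic footprints of 317 nt in all. The log2 ratios were 1.41, 0.16 and 0.80 in naive and 2.20, -2.46 and 1.69 in mild EAE mice, so the groups overlapped. Of the 429 UAG in intronic motor footprints, 268 (62.5%) lay in footprints that were mostly masked sequence. By share of footprints, 79.8% of the 119 held at least 1 UAG, against 83.2% of the windows, and the share of footprints with the motif was thus no higher than in the windows.

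In coding motor footprints UAG was less dense than in the windows, which often lie in introns. Set against the whole coding sequence of the same genes, the density was 2.94, 2.48 and 3.85 UAG per 1000 nt in naive mice against 3.70, 3.68 and 3.65, and 3.65, 3.83 and 4.13 in mild EAE against 3.86, 3.60 and 3.95. AGGU was at 3.89, 3.02 and 4.34 per 1000 nt in naive mice against 4.22, 4.33 and 4.29, and at 3.32, 3.30 and 3.45 in mild EAE against 4.16, 4.14 and 4.09. Neither motif was above the coding sequence of the same genes in all 3 naive or in all 3 mild EAE mice. UAG occurred in 26.7% and AGGU in 25.0% of the coding motor footprints, against 35.2% and 23.6% of those of all protein-coding genes.

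Partners of the motors outside the naming rule, 39 genes for adaptors, dynein regulators and light chains, dynactin components and other kinesins and myosins, were examined in the same way. Footprints were found on 33 of them (84.6%), and on 25 (64.1%) in at least 5 mice, against 45.6% and 14.4% of all protein-coding genes. The partner list was chosen with earlier results of these data known. The part of gene length or expression in these percentages was not tested. Myh9 and Myh10, non-muscle myosin heavy chains, covered 301, 2015 and 2011 nt and 1554, 1123 and 1886 nt in naive mice and 2123, 903 and 1882 nt and 1556, 907 and 2338 nt in mild EAE. The adaptors Mapk8ip3 and Spag9, which join kinesin and dynein to cargo, covered 1543, 607 and 1119 nt and 677, 436 and 1583 nt in naive mice and 1607, 782 and 1891 nt and 1330, 519 and 1752 nt in mild EAE. Naive and mild EAE mice overlapped for these 4 genes. Of 29 partners tested, 0 were past the threshold after adjustment and 1, the dynein adaptor Bicdl1, had an unadjusted exact permutation p under 0.05 (p = 0.0333), lower in EAE, where 6.28% of all genes tested had such a p.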

How the data were processed

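Libraries were made from UV-crosslinked spinal cord lysates of 10 mice; the 10 matched inputs and 2 pooled IgG libraries were not analysed here. The authors demultiplexed reads with bcl2fastq 2.19.0.316, trimmed them with fastp, built contigs from them (rnaSPAdes), placed these on GRCm38 by spliced alignment (minimap2 2.17), removed sites present in the matched input or IgG data with bedtools and merged the rest. The deposited lists hold chromosome, start and end, with no score, strand or read count, so values rest on footprints and covered nt and read depth is not used. Labels name antibody clone 9H10, the published methods 4B10. Groups follow the clinical scores in the labels, and the numbers of mice only name them.

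A footprint was assigned to each protein-coding gene (GENCODE M21) that it overlapped by at least 1 nt, and to the class at its midpoint. Chromosome lengths matched GRCm38, with 135636 of 136207 footprints on named chromosomes and 0 past an end. Genes with a footprint in at least 3 mice were tested by two-sided exact permutation of mean covered nt with Benjamini-Hochberg adjustment. The separate mice are the replicates. Named genes have a footprint in at least 5 mice, rank among the 25 with most covered nt, or do not overlap between groups. Members and gene lists were chosen with earlier results of these data known. The tests were checked on simulated data. Alternatives were footprint length, merging within 50 nt, midpoints, single-gene footprints, scaling to covered nt, presence or absence, flank distance, each mouse left out and a replicate block. Python 3.11.15 with numpy, pandas, scipy and pysam was used, and sequences were read from the RefSeq GRCm38 assembly.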

Additional observations from a re-analysis of the deposited data

Results flagged for a closer look

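In the 4 severe EAE mice, 28 of 42 values examined had 1 mouse far from the other 3. The gap to the nearest mouse is given as a part of the whole range. Chance flags about 1 in 20 groups only where values are independent and normally distributed. These values come from the same 4 lists of unequal length, so 28 of 42 cannot be set against that rate. In 27 of the 28 the distant mouse was severe EAE mouse 4, the mouse with 31870 footprints, and it was the highest. This gap was 0.887 for the number of motor footprints, 0.906 for their covered nt, 0.871 for kinesin heavy chain, 0.847 for dynein, 0.941 for dynactin and 0.965 for myosin footprints. By gene it was 0.845 for Kif5c, 0.873 for Myo9b, 0.95 for Kif5b and 0.986 for Dctn1. It was 1 for Myo18a, Kif21a, Myo5a, Kif13b, Kif21b, Dync1li2, Kif13a, Dync1i1, Myo6, Dync1i2, Dync2h1, Kif26b, Myo16, Kif2a, Myo9a, Myo1d and Kif3b, where the other 3 severe EAE mice had no covered nt. For the intronic share the distant mouse was severe EAE mouse 2 (0.885), which had 1 intronic footprint of 2. The part of list size in these gaps was not tested.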

How the results depend on the processing

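The EAE minus naive difference in the motor gene share was 0.31 percentage points and 0.157 to 0.424 without single mice; it was above the pooled SD of 0.377 without severe EAE mouse 2 (0.424), without naive mouse 3 (0.405) and for footprints in a single gene (0.403). The intronic share differed by -3.82 points, by 0.775 without naive mouse 2 and by -10.7 without severe EAE mouse 2, so its direction over all EAE mice rested on single mice. Motor genes footprinted differed by -15.4 (-18.8 to -12 without single mice). The log2 ratio of intronic UAG differed by -0.2, from -0.6 to 0.56 without single mice. Mild EAE mouse 2 and severe EAE mouse 2 entered this difference with only 2 and 1 intronic footprints. Severe EAE mice 1 and 3 had none and did not enter it. Scaling to covered nt changed the motor genes without overlap from 1 to 3 above and from 1 to 2 below naive in mild EAE, from 2 to 5 below in severe EAE, and those at an unadjusted p under 0.05 from 2 to 4, where the share of all genes went from 2.83% to 4.67%, 3.21% to 3.32%, 2.79% to 6.18% and 6.28% to 7.95%. Counting footprints gave 3 above naive in mild (2.16% of all genes) and 1 below in severe EAE (Myo1c; 199 of 9075 genes in all). Without single mice the counts ran from 1 to 9 above (9 without mild EAE mouse 2, 5 without naive mouse 3) and 1 to 7 below in mild EAE (7 without naive mouse 3), from 2 to 19 below in severe EAE (19 without severe EAE mouse 4, 8 without naive mouse 3), and from 1 to 3 at an unadjusted p under 0.05 (1 without naive mouse 2, mild EAE mouse 1 or 2, or severe EAE mouse 1, 2 or 3). The counts above and below naive in mild EAE were also 2 and 4 without naive mouse 1, 2 and 2 without mild EAE mouse 1, and 2 and 5 without mild EAE mouse 3, and the count below in severe EAE was 4 without naive mouse 1. Without single mice the share of all genes ran from 4.37% to 11.1% above and 3.72% to 9.32% below in mild EAE and from 2.8% to 23.8% below in severe EAE. In these settings 0 genes passed after adjustment, with 127 to 655 at an unadjusted p under 0.05. In a replicate block that paired naive mice 1, 2 and 3 with the EAE mice of those label numbers, the differences were 0.319 points, 4.64 points and -23 genes; the labels give no sign that equal numbers pair the mice, and the EAE mice so paired include 2 of the 3 shortest lists. The lists carry no read counts, and the 2, 14 and 53 motor footprints of severe EAE mice 2, 3 and 1 cannot show whether single genes were bound there.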
